A study of Mus musculus with 24 samples.

Results

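FXR, the farnesoid X receptor encoded by Nr1h4, was examined together with 6 of its classical hepatic target genes: Nr0b2, Fgfr4, Abcb11, Abcb4, Osgin1 and Sdc1. The 7 genes were taken by symbol from the platform's table of probe sets and genes, out of 22180 genes with a probe set of their own. Sdc1 had a second probe set, and the one of higher mean level over all arrays was used. The question, going by the series' title, is how the bile acid receptor behaves under fasting signals and under loss of FOXA2.

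Gene expression was measured on 24 Affymetrix MoGene 2.0 ST arrays in primary hepatocytes of male C57Bl6J mice. The 8 groups of 3 arrays crossed 3 factors: an adenoviral short hairpin RNA (shlacZ, against a bacterial gene, or shFOXA2, labelled shFOXA2.3, against the liver transcription factor FOXA2, each at a multiplicity of infection of 5), a hormone (1 nM insulin or 100 nM glucagon) and a compound (the solvent DMSO or 2 µM GW4064, a synthetic FXR agonist), given together for 4 h. Every culture carried a virus and 100 nM dexamethasone, and none lacked both hormones, so that higher with glucagon and lower with insulin cannot be told apart. A single FOXA2 hairpin was used. Each of the 3 experiments used hepatocytes pooled from 3 mice, with technical replicates pooled within a sample, and each group had 1 array per experiment, so the 12 pairs of a comparison below come from 3 pools of cells. In such bulk RNA, fewer cells of a type and less RNA per cell cannot be told apart.

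FXR is a nuclear receptor that binds bile acids, pairs with RXR on inverted repeats of the motif AGGTCA, and limits the bile acid load of the hepatocyte. It does so by raising export into bile, through the transporters encoded by Abcb11 and Abcb4, and by lowering synthesis, through the corepressor SHP encoded by Nr0b2 and through the intestinal hormone FGF15, which signals in hepatocytes through FGFR4. Osgin1 and Sdc1 are targets outside bile acid handling.

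Levels are log2 values as deposited. A difference is given on the same log2 scale with its standard error (SE), and a gene passed the test where its limma p-value, adjusted over all 22180 genes, was under 0.05. Over all probe sets the median level was 3.25, and levels near or below it lie close to the floor of the arrays, where differences are understated. A level describes 1 probe set and was not compared between genes. Arrays of the same experiment deviated from their group means together. The adjusted p of a member with the experiment as a block is therefore given wherever it changed the call of an averaged difference. Lists are counted both without and with the block. Hepatocyte markers (Alb, Ttr, Apoa1, Apob and Ahsg) had a mean level of 11.68 to 11.98 on every array, and 2 of the 5 passed as higher with glucagon, Ttr by 0.27 and Ahsg by 0.24; their part in the hormone differences below was not tested. The hairpin's own target Foxa2 was below its shlacZ partner in 12 of 12 pairs, with a mean difference of -0.43 (SE 0.0722, adjusted p = 0.0613, and 0.0194 with the block), and of -0.12 in the 4 pairs of experiment 3.

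Between glucagon and insulin, averaged over hairpins and compounds, 4 of the 7 genes passed the test: Osgin1, Abcb11 and Nr1h4 were lower with glucagon and Sdc1 was higher. Of all genes, 16.2% passed. With the experiment as a block, Abcb4 and Fgfr4 also passed, both higher with glucagon, against 24.6% of all genes. Between GW4064 and DMSO, averaged in the same way, Nr0b2 was the single member that passed, higher with the agonist, where 0.00902% of all genes (2 of 22180) passed. With the block Osgin1 joined it, against 0.0135% of all genes (3 of 22180), and had the lowest p of all genes. No member passed between the FOXA2 and lacZ hairpins, where 0.00902% of all genes passed, or 0.0766% with the block.

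**Figure D1:**
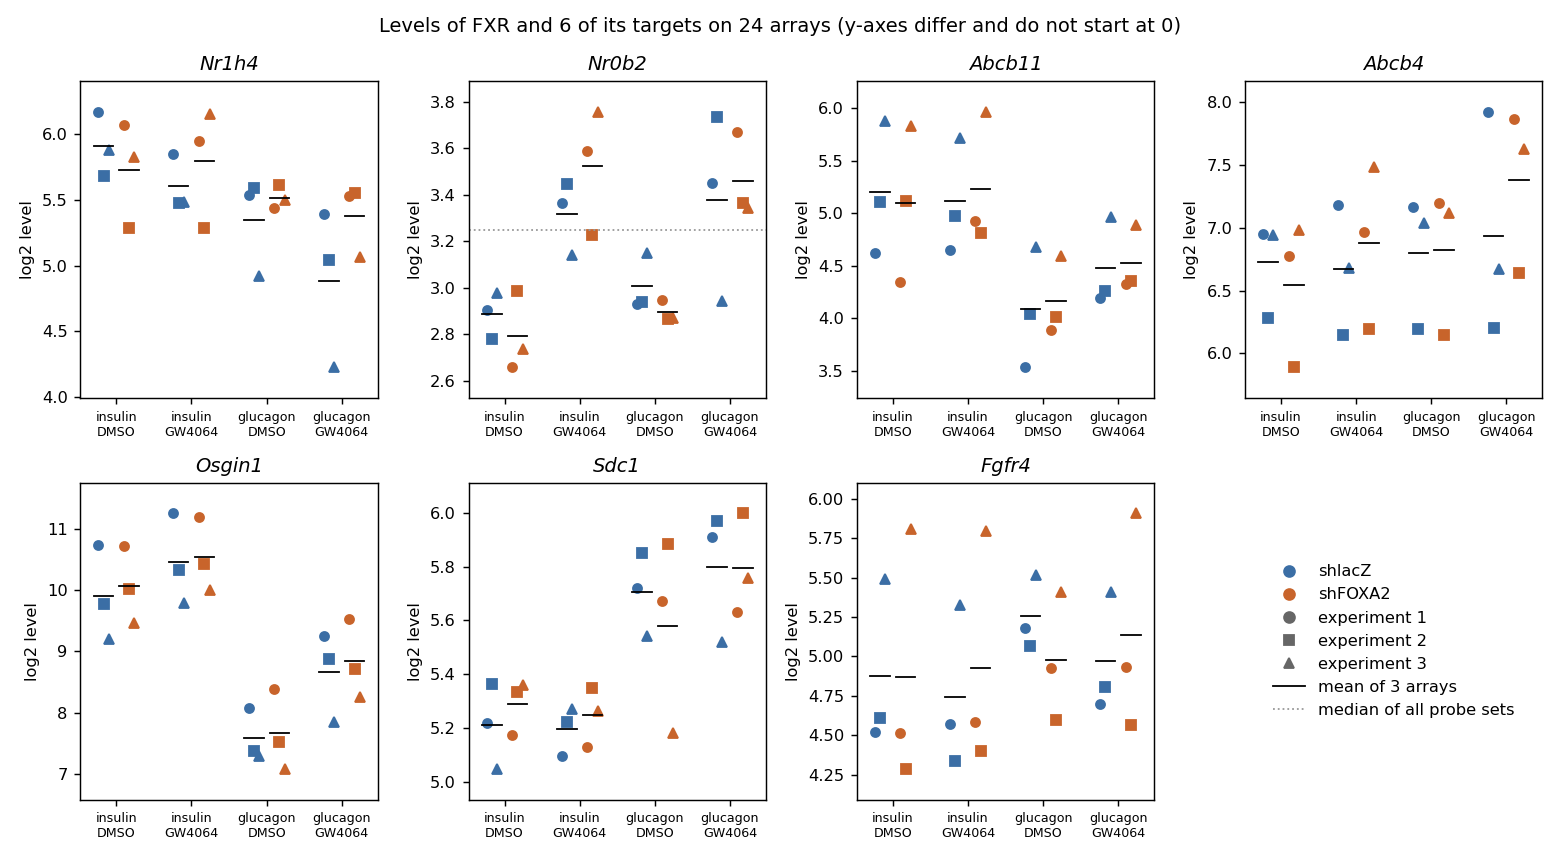
Log2 level of each of the 7 genes on all 24 arrays, by hormone and compound (x axis), hairpin (colour) and experiment (marker shape), with the mean of each group of 3 as a black line. Osgin1 lies between 9.20 and 11.25 with insulin and between 7.08 and 9.54 with glucagon, and Nr0b2 straddles the median of all probe sets (dotted line).

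Nr1h4, the receptor itself, was expressed in every group. With insulin and DMSO its levels were 6.17, 5.68 and 5.88 in experiments 1, 2 and 3 with shlacZ, and 6.07, 5.28 and 5.82 with shFOXA2. With glucagon and DMSO they were 5.54, 5.59 and 4.92 with shlacZ, and 5.44, 5.62 and 5.496 with shFOXA2. Levels with either hormone therefore overlapped, and experiment 2 showed the smallest gap. Adding GW4064 gave 5.85, 5.48 and 5.49 under insulin with shlacZ, and 5.95, 5.29 and 6.15 with shFOXA2. Under glucagon the agonist arrays read 5.39, 5.04 and 4.22 with shlacZ, and 5.53, 5.55 and 5.06 with shFOXA2. The value of 4.22 was the lowest of all 24.

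Glucagon against insulin gave a difference of -0.48 for Nr1h4 (SE 0.136, limma adjusted p = 0.0184), a level 1.39-fold lower, with 10 of 12 pairs lower. By experiment, the mean difference was -0.54 in the first, 0.017 in the second and -0.91 in the third. All 4 pairs of experiment 1 and all 4 of experiment 3 were lower, and those of experiment 2 were split at 2 against 2. The call was lost without experiment 1 (-0.45, limma adjusted p = 0.155, or 0.0858 with the block) and without experiment 3 (-0.26, adjusted p = 0.269, or 0.0917 with the block). In experiment 3 the 2 shlacZ glucagon arrays also carried high levels of the chemokine gene Cxcl1, at 8.08 with DMSO and 8.64 with GW4064, against 4.81 to 5.43 in the same groups of the other experiments; the part of this in the result was not tested. Cxcl1 on the shFOXA2 glucagon arrays of experiment 3 was 6.06 with DMSO and 6.90 with GW4064, against 4.45 to 5.64 in the other experiments. Leaving out only the 2 shlacZ glucagon arrays of experiment 3 gave -0.34 for Nr1h4 and an adjusted p of 0.0550, so that the call was lost. GW4064 against DMSO gave -0.21 (SE 0.136, adjusted p = 1.00), with 9 of 12 pairs lower, among them all 6 shlacZ pairs and 3 of 6 shFOXA2 pairs; the difference between the hairpins in this response was 0.35 (SE 0.273, adjusted p = 1.00).

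Nr0b2, which encodes SHP, a nuclear receptor without a DNA-binding domain that represses bile acid synthesis genes, was near the floor. With DMSO its levels were 2.90, 2.78 and 2.98 in experiments 1 to 3 for shlacZ and insulin, and 2.66, 2.99 and 2.74 for shFOXA2 and insulin. For glucagon and DMSO they were 2.93, 2.94 and 3.15 with shlacZ, and 2.95, 2.86 and 2.87 with shFOXA2. All 12 DMSO arrays thus lay below the median of all probe sets. With GW4064 they were 3.37, 3.45 and 3.14 under insulin with shlacZ, and 3.59, 3.23 and 3.76 with shFOXA2. The agonist arrays under glucagon read 3.45, 3.74 and 2.94 with shlacZ, and 3.67, 3.37 and 3.35 with shFOXA2. Within experiments 1 and 2 every agonist array was above every DMSO array, and in experiment 3 the shlacZ glucagon pair ran the other way.

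The agonist difference of Nr0b2 was 0.53 (SE 0.0814, limma adjusted p = 0.0337, and 0.0199 with the block), with 11 of 12 pairs higher. Since its DMSO arrays lie at the floor, no fold change is given. It was 0.58 under insulin (SE 0.115) and 0.47 under glucagon (SE 0.115), and neither passed on its own (adjusted p = 0.818 and 0.990). The difference between the hormones was -0.11 (95% interval -0.45 to 0.23), and that between the hairpins 0.25 (-0.09 to 0.59). The averaged difference ran from 0.48 to 0.58 when any single array was left out, but the adjusted p stayed under 0.05 in only 4 of those 24 fits and ran from 0.00204 to 0.111. Without experiment 1 it was 0.46 (adjusted p = 1.00), and without experiment 2 it was 0.51 (adjusted p = 1.00). Without both shlacZ glucagon arrays of experiment 3 it was 0.60 (adjusted p = 0.00279). Glucagon minus insulin was 0.05 (SE 0.0814, adjusted p = 0.780).

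Fgfr4 encodes the hepatocyte receptor for FGF15. Its levels followed the experiment: all 8 arrays of experiment 3 lay between 5.32 and 5.91, above the 4.28 to 5.18 of experiments 1 and 2. Within the insulin arrays the lowest, median and highest levels were 4.28, 4.58 and 5.81, and within the glucagon arrays 4.56, 4.997 and 5.91. Glucagon minus insulin was 0.23 (SE 0.214, adjusted p = 0.599) and 0.0431 with the block, with 11 of 12 pairs higher. It was 0.39 and 0.35 on average in experiments 1 and 2 and -0.04 in experiment 3, and without experiment 3 it was 0.37 (adjusted p = 0.00492). With the block the call was lost without experiment 1 (0.15, adjusted p = 0.462) and without experiment 2 (0.17, adjusted p = 0.309). GW4064 minus DMSO was -0.05 (95% interval -0.50 to 0.40), with 5 pairs higher and 7 lower.

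Abcb11 encodes the bile salt export pump, which moves bile salts across the canalicular membrane. Its promoter is shown because it held the closest match to an FXR element among the 7 genes. The RefSeq promoter windows (GRCm38.p6, 250 bases before to 50 after a transcription start) were matched by symbol for 7 of 7 genes. They were searched on both strands for an inverted repeat of that motif with 1 free base between, AGGTCANTGACCT. The Abcb11 window, chr2:69342567-69342866 on the minus strand, reads 5′ to 3′ as follows, with the best match in capitals.

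Abcb11 promoter: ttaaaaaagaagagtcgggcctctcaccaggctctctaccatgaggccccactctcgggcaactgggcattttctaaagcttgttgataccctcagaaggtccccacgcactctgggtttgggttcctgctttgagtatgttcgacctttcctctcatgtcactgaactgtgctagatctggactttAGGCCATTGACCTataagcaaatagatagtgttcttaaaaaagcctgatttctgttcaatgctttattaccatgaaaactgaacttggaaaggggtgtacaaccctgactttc

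The match lies 63 to 51 bases before the start (chr2:69342667-69342679) and differs from the repeat at 1 of the 12 fixed bases, T4C, with the repeat's base first and positions counted from 1 at its 5′ end. Of all 32851 promoters of that length, 27 (0.0822%) held a window with at most 1 mismatch. The best 13-base windows of the other genes had 3 or 4 mismatches, and 11.4% of all promoters held one with at most 3. They are set out for comparison, with bases that match the repeat in capitals.

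Abcb11 (T4C): AGGcCATTGACCT
Osgin1 (G3T, G9C, T13C): AGtTCATTcACCc
Nr0b2 (G2C, G3T, C12T, T13A): ActTCATTGACta
Nr1h4 (A1T, T4C, C5A, A6T): tGGcatTTGACCT
Abcb4 (A1T, C5T, A6G, C11A): tGGTtgTTGAaCT
Fgfr4 (A1G, A6T, T8G, T13A): gGGTCtCgGACCa
Sdc1 (A1G, T4A, A6T, T8A): gGGaCtCaGACCT

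The windows of Nr1h4 and Osgin1 sit at a start inside the gene, not at its outermost one. Among the 7 promoters the exact motif AGGTCA occurred on the reverse strand of Abcb11 and Nr1h4 alone, in each as a part of the window shown, and 16.3% of all promoters held it. The core TGACG of cAMP response elements (in 20.8% of all promoters), the forkhead sequences TGTTTAC (3.65%) and TGTTTGC (5.07%) and the antioxidant core TGACNNNGC (12.4%) had no match in the 7, which says only that these letters are not in these windows. Of the genes with at most 1 mismatch to the repeat, 16 were measured, and 10 of these had a mean level below the median of all probe sets, where a response could hardly be seen. GW4064 gave a higher level in 9 of the 16, none passed, and their median difference was 0.031 against -0.004 over all genes, 47.1% of which were higher.

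Abcb11 was lower with glucagon in every pair. With insulin and DMSO its levels were 4.62, 5.10 and 5.87 in experiments 1 to 3 with shlacZ, and 4.35, 5.11 and 5.83 with shFOXA2. With glucagon and DMSO they were 3.54, 4.05 and 4.68 with shlacZ, and 3.89, 4.01 and 4.59 with shFOXA2. The glucagon arrays lay below the insulin arrays in each experiment with no overlap. With GW4064 added, the insulin arrays read 4.65, 4.97 and 5.72 with shlacZ, and 4.92, 4.81 and 5.96 with shFOXA2. The glucagon arrays with the agonist read 4.20, 4.26 and 4.97 with shlacZ, and 4.33, 4.36 and 4.89 with shFOXA2. Over all 8 arrays of each experiment, the mean levels of experiments 1 to 3 were 4.31, 4.58 and 5.31, and these spread as widely as the hormones did.

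The hormone difference of Abcb11 was -0.85 (SE 0.204, limma adjusted p = 0.00534, and 1.07e-08 with the block), a level 1.80-fold lower, with 12 of 12 pairs lower, and it held its call without any single array. Without experiment 2 it was -0.85 (adjusted p = 0.129), while with the block it passed without each experiment in turn (adjusted p at most 3.60e-05). The difference was -1.02 on average in the 6 DMSO pairs and -0.67 in the 6 GW4064 pairs. Seen from the agonist's side, GW4064 minus DMSO was 0.37 under glucagon, with 6 of 6 pairs higher, and 0.03 under insulin, with 3 of 6 higher. Neither passed (limma adjusted p = 1.00 for each, and 0.454 and 1.00 with the block), and the difference between them was 0.35 (SE 0.408, adjusted p = 1.00).

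Abcb4 encodes the phospholipid translocator of the canalicular membrane, which protects bile duct cells from bile salts. Its levels were lowest in experiment 2, at 5.89 to 6.64, and ranged from 6.67 to 7.93 in the other experiments. Insulin arrays ran from 5.89 to 7.48 with a median of 6.86, and glucagon arrays from 6.14 to 7.93 with a median of 7.08. Glucagon minus insulin was 0.28 (SE 0.229, adjusted p = 0.537) and passed narrowly with the block (adjusted p = 0.0493), with 10 of 12 pairs higher; in experiment 1 the mean was 0.57, in experiments 2 and 3 it was 0.16 and 0.09. With the block this call was lost without experiment 1 (0.13, adjusted p = 0.408) and without experiment 2 (0.33, adjusted p = 0.161). GW4064 minus DMSO was 0.24 (95% interval -0.23 to 0.72), higher in 6 of 6 shFOXA2 pairs, with a mean of 0.45, and in 3 of 6 shlacZ pairs, with a mean of 0.04. That difference between hairpins, 0.41, did not pass (SE 0.457, limma adjusted p = 1.00, and 0.879 with the block).

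Osgin1, which encodes an oxidative stress induced growth inhibitor and is a reported target of both FXR and the stress factor NRF2, had the largest difference of the 7 genes. With insulin and DMSO its levels were 10.74, 9.78 and 9.20 in experiments 1 to 3 with shlacZ, and 10.73, 10.02 and 9.46 with shFOXA2. With glucagon and DMSO they were 8.07, 7.37 and 7.30 with shlacZ, and 8.39, 7.53 and 7.08 with shFOXA2. Insulin and glucagon arrays did not overlap in any experiment. With GW4064 the insulin arrays read 11.25, 10.33 and 9.80 with shlacZ, and 11.20, 10.42 and 10.00 with shFOXA2. With glucagon and GW4064 they were 9.26, 8.88 and 7.85 with shlacZ, and 9.54, 8.71 and 8.26 with shFOXA2. Each agonist array was above its DMSO partner, while the pools differed by more than the agonist did: the means of experiments 1 to 3 were 9.90, 9.13 and 8.62.

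Osgin1 was lower with glucagon in 12 of 12 pairs, by 1.45 to 2.67 on the log2 scale. The fitted difference was -2.06 (SE 0.245, limma adjusted p = 3.01e-06), a level 4.16-fold lower, and the thirteenth largest decrease of the 22180 genes. With GW4064 it was 0.82 higher, or 1.76-fold, in 12 of 12 pairs. Without the block this agonist difference did not pass (SE 0.245, adjusted p = 1.00), and with the block it did (SE 0.0621, adjusted p = 7.29e-07). It kept that call with the block when each experiment in turn was left out (adjusted p at most 0.00679). Only 1 gene had a larger upward difference. Under insulin the difference was 0.51 (adjusted p = 0.0877 with the block), with pairs between 0.40 and 0.59. Under glucagon it was 1.13 (adjusted p = 1.17e-06 with the block), with pairs between 0.55 and 1.51, and it was the largest of all genes upward. The difference between the hormones was 0.62 (95% interval with the block 0.36 to 0.88), with an unadjusted p of 7.86e-05 and an adjusted p of 0.539 with the block, and so did not pass. The glucagon decrease was correspondingly -2.37 on average in the DMSO pairs and -1.75 in the GW4064 pairs.

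Sdc1 encodes syndecan-1, a cell-surface heparan sulfate proteoglycan that takes up lipoprotein remnants in the liver. With insulin its levels lay between 5.05 and 5.36, with a median of 5.24, whatever the hairpin or compound. With glucagon and DMSO they were 5.72, 5.85 and 5.54 in experiments 1 to 3 with shlacZ, and 5.67, 5.88 and 5.18 with shFOXA2. With glucagon and GW4064 they were 5.91, 5.97 and 5.52 with shlacZ, and 5.63, 5.999 and 5.76 with shFOXA2. The glucagon array at 5.18, of shFOXA2 in experiment 3, was the single one that fell within the insulin range. The hormone difference was 0.48 (SE 0.0763, limma adjusted p = 8.74e-05), or 1.399-fold, with 11 of 12 pairs higher. It passed without any single array and without any experiment. The second probe set of Sdc1, at lower levels, gave 0.38 (SE 0.0828, adjusted p = 0.00232). GW4064 minus DMSO was 0.06 (95% interval -0.10 to 0.22), with 6 pairs higher and 6 lower.

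**Figure D2:**
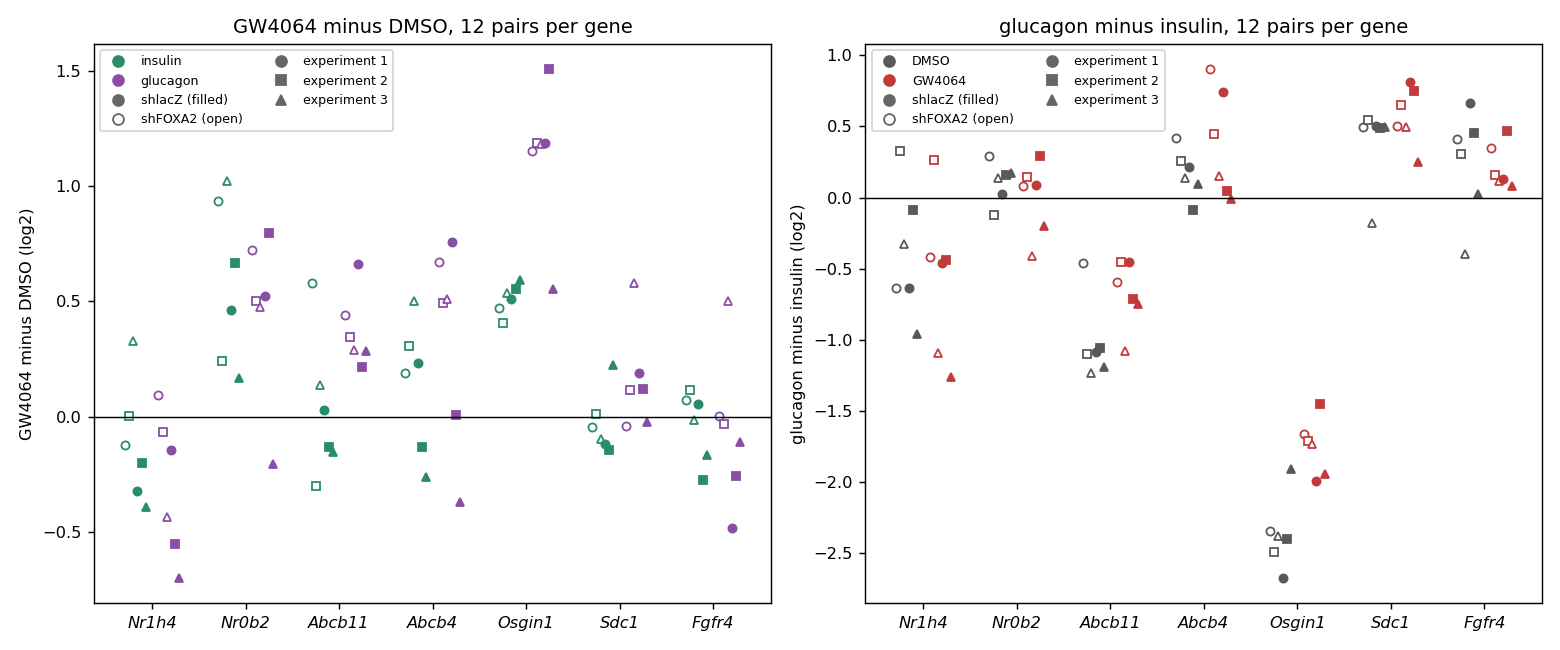
Differences within the 12 matched pairs of arrays for each of the 7 genes (x axis), on the log2 scale: GW4064 minus DMSO (left, coloured by hormone) and glucagon minus insulin (right, coloured by compound). Filled markers are shlacZ, open ones shFOXA2, and shapes are experiments. Osgin1 is above 0 in all 12 agonist pairs and below 0 in all 12 hormone pairs, as Abcb11 is in the hormone pairs.

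Within single conditions of 3 against 3 arrays, fewer members passed. Osgin1 passed between glucagon and insulin with DMSO for shlacZ (-2.33, limma adjusted p = 0.00680) and for shFOXA2 (-2.41, adjusted p = 0.00494), where 4.68% and 4.79% of all genes passed. With GW4064, Sdc1 passed for shlacZ (0.61, adjusted p = 0.0315), where 3.09% of all genes passed. The second probe set of Sdc1 gave 0.52 there (limma adjusted p = 0.111) and passed in none of the single conditions without the block. No member passed for shFOXA2 with GW4064, where 3.49% of all genes passed. The nearest were Sdc1 (0.55, adjusted p = 0.0517) and Osgin1 (-1.70, adjusted p = 0.0635). With the block, Osgin1 and Abcb11 passed in all 4 conditions and Sdc1 in 3, the exception being shFOXA2 with DMSO (adjusted p = 0.155). The shares of all genes that passed with the block were 11.2% and 11.3% with DMSO and 8.41% and 9.14% with GW4064.

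For GW4064 minus DMSO, 0 members and 0% of all genes passed in each of the 4 conditions of hormone and hairpin under limma without the block. At an unadjusted p under 0.05 there were 647, 495, 842 and 819 genes for shlacZ with insulin, shFOXA2 with insulin, shlacZ with glucagon and shFOXA2 with glucagon. With the block Osgin1 was the single gene of all 22180 that passed under glucagon, with shlacZ (1.08, adjusted p = 0.000794) and with shFOXA2 (1.17, adjusted p = 0.000217), which is 0.00451% of genes in each. Averaged over the hairpins, 0 genes passed under insulin and 0 under glucagon, with 555 and 786 at an unadjusted p under 0.05. With the block 2 genes (0.00902%) passed under either hormone: Mybl1, a MYB-family transcription factor, and Id2 under insulin, and Mybl1 and Osgin1 under glucagon. Mybl1 was also the second gene that passed in the averaged comparison, at 1.02 (SE 0.151, adjusted p = 0.0337), with 12 of 12 pairs higher.

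**Figure D3:**
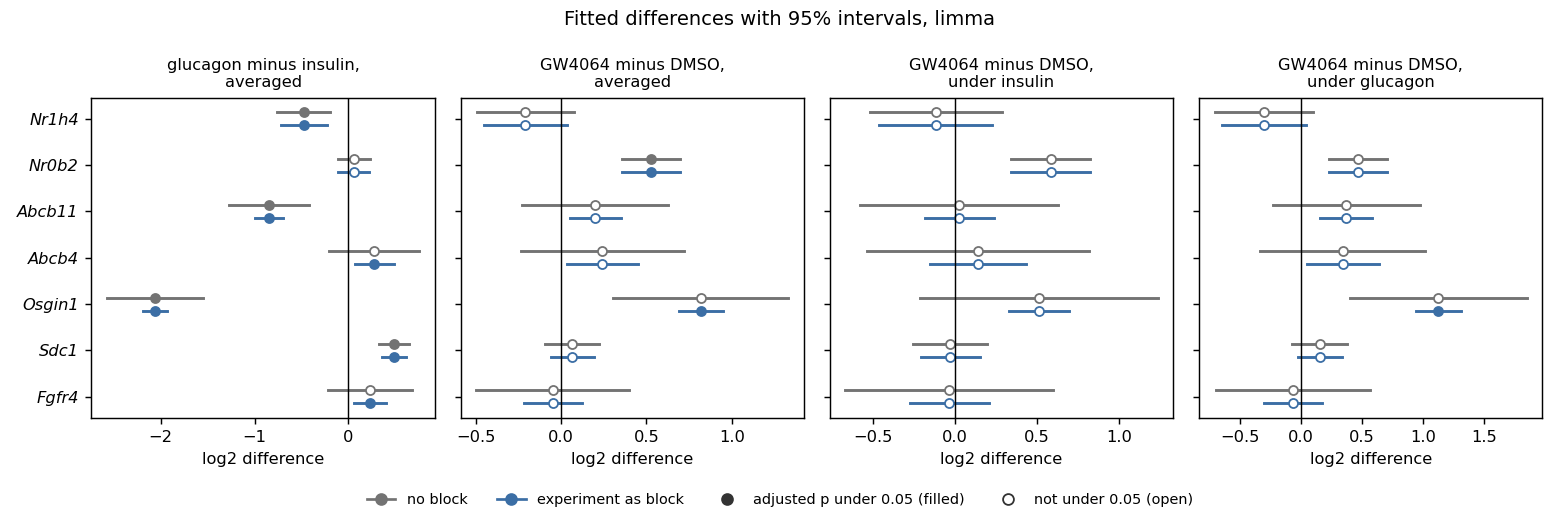
Fitted log2 differences of the 7 genes with their 95% intervals, without (grey) and with (blue) the experiment as a block, for the averaged hormone and agonist comparisons and for the agonist under each hormone. Filled points had a limma adjusted p under 0.05. The block leaves each difference as it is and narrows the interval of Osgin1 and Abcb11 the most, while that of Nr0b2 hardly moves.

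The FOXA2 hairpin gave differences between 0.0004 and 0.17 for the 7 genes, and none passed with or without the block. As given above, Foxa2 RNA itself was lowered only in part, so these values do not describe a full loss of FOXA2. The 95% intervals were -0.12 to 0.45 for Nr1h4, -0.15 to 0.19 for Nr0b2, -0.39 to 0.46 for Abcb11 and -0.39 to 0.64 for Osgin1, so changes of a size within them cannot be told from none here. Of all genes, 1376 had an unadjusted p under 0.05 in this comparison. Whether hormone acted differently with the hairpin, whether the agonist did, and whether the agonist acted differently by hormone was tested by 3 interactions. In each, 0 genes (0%) passed under limma with or without the block, and 921, 705 and 584 genes had an unadjusted p under 0.05 without it.

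The other genes of the pathway were taken from lists by role, and their counts stand against the 16.2% of all genes that passed between hormones, or 24.6% with the block. Among FXR and its RXR partners, Nr1h4 was the 1 of 4 that passed between hormones, lower with glucagon, and Rxra stood at 0.14 (adjusted p = 0.0845, and 0.0455 with the block). In the relay to bile acid synthesis, 2 of 6 were higher with glucagon: Hnf4a, a nuclear receptor of hepatocyte identity, by 0.97 and Klb, the coreceptor of FGFR4, by 0.88. With the block 4 of the 6 passed, all higher. Of 12 genes of bile acid synthesis and conjugation, 2 were higher, Scp2 by 0.79 and Cyp7b1 by 0.22, and 10 did not pass. With the block 5 were higher and 7 did not pass. Cyp7a1, the rate-limiting enzyme of bile acid synthesis and a classical target of repression by SHP, was near the floor at a mean of 2.68, with -0.01 between hormones and -0.004 with GW4064.

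Among 4 uptake carriers, Slco1a4, an organic anion transporter, was higher with glucagon by 1.86. With the block 3 of the 4 were higher, and the exception was Slc10a1, the main bile salt uptake carrier, at 0.15 (adjusted p = 0.716, and 0.336 with the block). Of 9 measured export genes, 3 were higher, and Abcb11 was the only one lower. The 3 were Abcg5 (0.82) and Abcg8 (0.70), the subunits of the sterol exporter, and Abcc2 (0.34), an exporter of conjugated anions, and with the block 5 were higher and 1 lower. Of 15 other reported FXR targets, 4 were higher and Osgin1 was the only one lower. The 4 were the fibrinogen chains Fga (0.89) and Fgb (0.43), the fatty acid oxidation regulator Ppara (0.53) and Sdc1, and with the block 9 were higher, with Osgin1 again the only one lower. Of 11 measured FXR coregulators, 4 were higher, led by the coactivator Ppargc1a (3.76) and followed by Ncoa2 (0.43), Kdm6a (0.39) and Sirt1 (0.31), and Med1 was lower (-0.19). With the block 4 were higher and 3 lower. Median differences of these 7 lists lay between -0.03 and 0.26, against 0.005 over all genes.

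**Figure D4:**
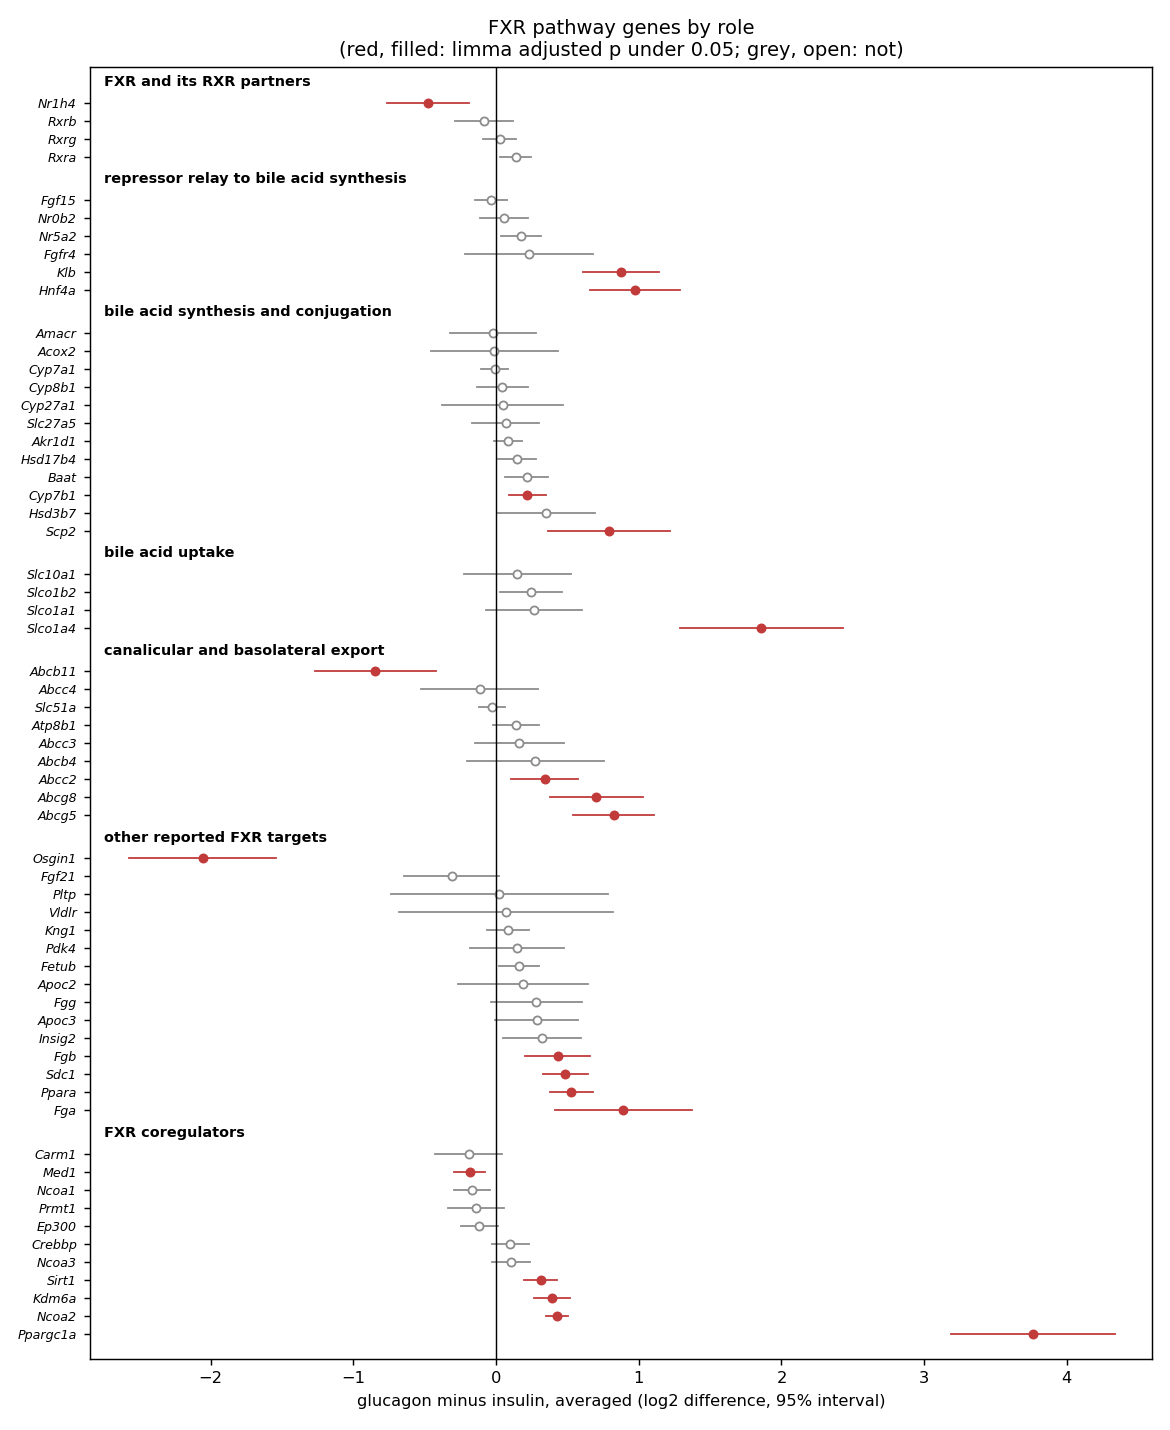
Glucagon minus insulin, averaged over hairpins and compounds, as log2 differences with 95% intervals for the measured genes of 7 pathway lists (rows, grouped by role). Red filled points passed at a limma adjusted p under 0.05. Osgin1 and Abcb11 lie farthest to the left, and Ppargc1a, at 3.76, farthest to the right.

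With GW4064 no gene of these lists passed without the block apart from Nr0b2, and with the block Osgin1 was the only addition. List medians with the agonist lay between -0.17, for uptake, and 0.06, for the other reported targets, against -0.004 over all genes. Osgin1 is also a reported target of NRF2. Of 8 NRF2 and oxidative stress genes, 3 were higher with glucagon, Gclc (1.09), Hmox1 (1.08) and Gsr (0.24), where Osgin1 was lower. With the block 7 of the 8 were higher. None passed with GW4064, and their differences there lay between -0.16 and 0.02. Among 12 measured relatives of the members, Fgfr1 (0.42) and Fgfr2 (0.39) were higher with glucagon and Sdc4 (-0.42) and Fgfr3 (-0.37) were lower, and with the block 3 were higher and 3 lower.

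Of 28 measured markers of other liver cell types, 1 passed between hormones, against 16.2% of all genes. With the block 6 of the 28 passed, against 24.6% of all genes. Sox9, from the cholangiocyte list, was lower with glucagon (-1.199, adjusted p = 0.000456) and Krt19 stood at -0.53 (adjusted p = 0.160, and 4.61e-05 with the block). The other 4 that passed with the block were higher with glucagon: Cd68 (0.24) of macrophages, Reln (0.25) and Lrat (0.19) of stellate cells and Cdh5 (0.16) of endothelial cells. Over all 5, the summed level of the measured cholangiocyte markers was 20.02 to 22.83 with insulin and 18.81 to 20.28 with glucagon, and 2 of the 5 lay below the median of all probe sets. Sums of macrophage markers were 22.2 to 24.8 with insulin and 22.8 to 25.9 with glucagon, with 4 of 6 below that median. Stellate cell markers, with 3 of 6 below it, summed to 20.3 to 23.4 and 20.9 to 24.1, and endothelial markers, with 1 of 6 below it, to 26.6 to 33.3 and 27.0 to 33.6. All 5 lymphocyte and plasma cell markers were below the median of all probe sets. The part of these markers in the hormone differences of the members was not tested.

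The members did not vary as a unit. Over the 24 arrays, Pearson correlations between members ran from -0.62, for Abcb11 and Sdc1, to 0.54, for Nr1h4 and Osgin1. After group means were taken out, Abcb11 and Fgfr4 correlated at 0.84 and Abcb11 and Osgin1 at -0.86, in step with the experiments: Abcb11 and Fgfr4 were highest on average in experiment 3, where Osgin1 was lowest. Arrays of an experiment share their pool of hepatocytes, so these are descriptions. The gene most like each member over the 24 arrays, among those with a mean above 3.25, was Mast2 for Nr1h4 (r = 0.80), Mybl1 for Nr0b2 (0.75), Azin1 for Abcb11 (0.92), Sult1a1 for Abcb4 (0.91), Scaf4 for Osgin1 (0.95), Ppat for Sdc1 (0.93) and Ldha for Fgfr4 (0.95). The next ones were Inhbe and Gne, Cntnap5c and Ppl, Actg1 and Eloc, Ttpa and Acot12, Nek6 and Fhl3, Fam20c and Clic4, and Tpi1 and Cd68, in the same order.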

How the data were processed

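RNA of primary mouse hepatocytes was hybridised to 24 Affymetrix MoGene 2.0 ST arrays. The authors deposited log2 values of 41345 probe sets, with 0 missing, which were used as given. GeneSpring was used, per the series' design text; how background and normalization were handled is not given in the sources used here. Array medians lay between 3.21 and 3.28, and the number of arrays limits the precision.

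Of the probe sets, 23521 carried 1 gene symbol, 1814 several and 16010 none. Symbols were updated through the RefSeq gene table (GRCm38.p6), and the probe set of highest mean was kept per gene, which gave 22180 genes. Differences were fitted with limma 3.58.1 in R 4.3.3 (lmFit, eBayes), with 1 mean per group, all 24 arrays, 16 residual degrees of freedom, Benjamini-Hochberg adjustment over all genes and a threshold of 0.05. An alternative fit had the experiment number as a block (14 residual degrees of freedom). The series' design text gives the shared pool of hepatocytes, and deviations from group means correlated in all 84 pairs of arrays of an experiment (r = 0.374 to 0.698, median 0.474). P-values measure the spread between arrays, and the pairs of an experiment are not separate animals. The fit without the block was tested on simulated arrays. These were drawn independently and lacked the deviations that arrays of an experiment share, so the test does not cover them. Python 3.11.15 with matplotlib 3.10.9 drew the plots.

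Members and lists were chosen with earlier results of these data known. Genes named are all members, the list members that passed (up to 4 by size) and the 3 genes most correlated with each member; Foxa2 checks the labels. Rxra, Slc10a1, Cyp7a1, Slc51a, Cxcl1, Mybl1, Id2, Sox9, Krt19, Cd68, Reln, Lrat, Cdh5, Ttr and Ahsg were named after their values were seen. Listed genes without a probe set of a single symbol were not analysed here. Alternatives were another scaling, a filter on dim genes, the mean of probe sets, an intensity trend, the block, the arrays of the compared groups alone, and leaving out each array or experiment. Leaving out the 2 shlacZ glucagon arrays of experiment 3, and each experiment with the block, were added after the data were seen. RefSeq promoters were searched with a Python script.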

Additional observations from a re-analysis of the deposited data

How the results depend on the processing

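The averaged hormone differences of Osgin1 and Sdc1 kept their direction and their call under every alternative run. Their calls within single conditions did not always hold, and 14 such values lost theirs under an alternative. No result that passed in the main fit or in the alternative set against it changed sign between the 2. Sign changes were seen in 6 values of the averaged hormone and agonist differences and in 217 values of the other differences and interactions. These passed in neither fit of the comparison. With the experiment as a block (the replicate block), 5454 genes passed between hormones, 2 for GW4064 under either hormone and 17 between hairpins. The differences of Abcb4 (0.28), Fgfr4 (0.23) and Osgin1 (0.82 with GW4064) then passed. No other averaged call of a member changed. Quantile normalization left 1 gene with GW4064 and 4 between hairpins, with Nr0b2 at 0.52 (adjusted p = 0.0503). Median centring gave 4 genes between hairpins and an intensity trend 1, and the filter on dim genes, which removes Nr0b2, left 1 with GW4064. Leaving out both shlacZ glucagon arrays of experiment 3 gave 4 genes between hairpins and -0.34 for Nr1h4. The causes of these moves were not tested.

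Leaving out single arrays or experiments gave 2018 to 3685 genes between hormones, 0 to 3 with GW4064, 0 to 2 under insulin, 0 to 1 under glucagon and 0 to 4 between hairpins. Hormone differences ran from -0.95 to -0.74 for Abcb11, -0.72 to -0.26 for Nr1h4 and 0.13 to 0.37 for Fgfr4, and the GW4064 difference of Nr0b2 from 0.46 to 0.61. With the block, Osgin1 was 0.81, 0.77 and 0.87 without experiments 1, 2 and 3, and passed each time. Nr0b2 was 0.46 and 0.51 without experiments 1 and 2 and did not pass. Nr1h4 was -0.45 and -0.26 without experiments 1 and 3 and did not pass. Abcb4 stood at 0.13 and 0.33 and Fgfr4 at 0.15 and 0.17 without experiments 1 and 2, and did not pass, while without experiment 3 both stood at 0.37 and passed. In these fits with the block, 8 genes passed with GW4064 without experiment 3, 4 under either hormone and 8 between hairpins. Without experiment 1 or 2, 0 genes passed between hairpins and 1 with GW4064 under glucagon.

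Low signal over background limits Nr0b2 and Cyp7a1, whose levels lie near the floor.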

Other observations

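Foxa2, the target of the hairpin, was itself higher with glucagon, by 1.19 (SE 0.0722, limma adjusted p = 2.15e-10), with 12 of 12 pairs higher and no overlap between the hormones on any of the 24 arrays. In shFOXA2 cells with glucagon its levels were 6.79 to 7.21, above the 6.07 to 6.30 of shlacZ cells with insulin. Slc51a, an FXR target of the basolateral membrane, stayed at 2.36 to 2.84 on all arrays, below the median of all probe sets.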
